A study of Mus musculus with 48 samples.

Results

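Transcripts of 9 transcription factors that pattern the midbrain and hindbrain, En1, En2, Pax2, Pax5, Pax8, Pax3, Pax7, Gbx2 and Lmx1b, were followed in the cortex of mice that were WT or heterozygous for the Chd8 V986* allele (Chd8 V986*/+). They were chosen by their symbols, as factors of midbrain and hindbrain patterning, and make up 9 of the 24444 genes measured. The choice was made with earlier results of these data known, so counts over the 9 genes are descriptions. Chd8 encodes a chromatin remodeler, and the V986* allele, a stop codon made by CRISPR/Cas9 and passed on from 1 male founder, is carried on 1 chromosome in the mutants. RNA-seq was performed on the cortex of one hemisphere from 48 male C57BL/6J mice, 6 WT and 6 Chd8 V986*/+ mice with littermates as controls at each of embryonic day 14.5 (E14.5) and 1, 6 and 12 months of age. No treatment is named in the labels. Each replicate is a separate mouse.

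During neural tube patterning, the isthmus at the junction of midbrain and hindbrain acts as a signaling center. Pax2, Pax5 and Pax8, related paired-box factors, and the homeodomain factors En1 and En2 are made on both sides of this junction, with Lmx1b, a LIM homeodomain factor, among the genes that maintain its Fgf8 and Wnt1 signals. Gbx2 marks the hindbrain side of the isthmus and is also made in the forebrain, in the thalamus and the ganglionic eminences, whereas Pax3 and Pax7 are made in the dorsal neural tube, including the roof of the midbrain, and in the neural crest. Most of these genes are not known as genes of cortical neurons.

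In the mm9 annotation the 9 genes lie on 5 chromosomes. En1 (ENSMUSG00000058665.7) spans chr1:122498995-122505873 on the plus strand and En2 (ENSMUSG00000039095.7) spans chr5:28492236-28500152 on the plus strand. Pax2 lies at chr19:44830539-44912758, Pax5 at chr4:44544017-44724318, Pax8 at chr2:24276071-24331119, Pax3 at chr1:78097842-78193709, Pax7 at chr4:139292977-139389445, Gbx2 at chr1:91824537-91829865 and Lmx1b at chr2:33416485-33496031. RefSeq promoter sequences were at hand for 7 of the 9 genes (tables of build GRCm38.p6, each upstream window found exactly once in mm9). The 250 bases upstream of the RefSeq start are given for En1, Pax5 and Pax8, whose levels went together from mouse to mouse, and for Gbx2, whose level did not, in the orientation of the gene with matches to the searched motifs in capitals. RefSeq and annotated starts differ for some genes. The windows of Pax5 and Gbx2 lie inside the gene spans given above, and that of En1 runs into its span.
En1 (chr1:122498814-122499063, plus strand): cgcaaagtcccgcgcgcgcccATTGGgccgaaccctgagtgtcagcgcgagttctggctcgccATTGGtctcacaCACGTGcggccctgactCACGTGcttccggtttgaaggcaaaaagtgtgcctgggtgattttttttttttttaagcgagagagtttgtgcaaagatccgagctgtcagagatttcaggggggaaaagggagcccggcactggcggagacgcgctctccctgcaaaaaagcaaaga
Pax5 (chr4:44723567-44723816, minus strand): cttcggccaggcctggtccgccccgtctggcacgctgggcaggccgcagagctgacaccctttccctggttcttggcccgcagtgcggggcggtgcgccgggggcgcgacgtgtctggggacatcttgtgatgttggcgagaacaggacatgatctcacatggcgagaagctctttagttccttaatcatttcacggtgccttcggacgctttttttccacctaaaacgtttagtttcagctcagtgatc
Pax8 (chr2:24331120-24331369, minus strand): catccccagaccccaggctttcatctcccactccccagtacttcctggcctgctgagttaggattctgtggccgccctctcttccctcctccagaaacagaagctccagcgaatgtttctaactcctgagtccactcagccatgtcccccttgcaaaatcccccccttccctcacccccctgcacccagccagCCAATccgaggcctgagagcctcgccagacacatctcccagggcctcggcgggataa
Gbx2 (chr1:91827752-91828001, minus strand): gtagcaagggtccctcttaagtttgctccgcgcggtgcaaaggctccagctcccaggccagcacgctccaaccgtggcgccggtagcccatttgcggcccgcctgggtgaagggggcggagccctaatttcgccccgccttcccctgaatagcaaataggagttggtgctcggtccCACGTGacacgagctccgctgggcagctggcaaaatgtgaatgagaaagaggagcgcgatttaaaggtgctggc
The motifs, searched on both strands, were the E-box CACGTG, the homeodomain core TAATTA, the CCAAT box (CCAAT) and the TATA box (TATAAA). The E-box had 2 matches in the En1 window and 1 in the Gbx2 window, so it was in 2 of the 9 windows of these genes (Pax2 has 3 starts), while 6.02% of all 32851 windows of this length held it. CCAAT was in 3 of the 9 windows, those of En1, Pax8 and Lmx1b, against 33.8% of all windows. TAATTA and TATAAA were in 0 of the 9 windows, against 4.84% and 12.4% of all windows. No motif was shared by all of the genes that went together, and the motifs did not overlap each other. The GC content of the 9 windows ran from 52.8% to 72.8%, with a median of 52.4% over all windows.

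Levels are given as deposited by the authors, as variance-stabilizing transformation (VST) values on a log2 scale. The most frequent value of the table, 2.1433, was taken as the floor, the value of a gene without reads. It appears as a slightly higher or lower value in each gene, because a shift between replicates 1 to 3 and 4 to 6 had been removed before deposit. VST values are not scaled to gene length, so each gene is compared only with itself between mice, and differences near the floor understate fold changes. The number of reads behind a single value is unknown. Chd8 itself was lower in every mutant than in every WT mouse at each age, with E14.5 levels of 12.33 to 12.66 in WT and 11.60 to 12.03 in Chd8 V986*/+ mice. The 10 cortical marker genes were abundant in every E14.5 mouse, with mean levels of 11.30 to 12.30. In bulk tissue, fewer cells of a type and less RNA per cell cannot be told apart.

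At E14.5, the question was whether the genotypes differed in these factors. Every one of the 9 genes had a lower mean in Chd8 V986*/+ mice, by 0.24 to 2.17 on the log2 scale, but no difference passed the test across all genes. With limma, 0 of 9 passed an adjusted p of 0.1, where 0.00593% of all 16877 genes tested passed, a single gene, Chd8. With DESeq2 at the same threshold, the study reports further genes at E14.5, among them Usp11 and Wars2. The single gene here is thus not the count of the study. For all 9 genes, the ranges of the genotypes overlapped. The share of all genes with such an overlap was not counted, so it does not set the 9 genes apart. The median difference was −1.25 for the 9 genes and 0.0010 for all genes tested. Of all 16877 genes tested, 8364 had a lower mean in mutants.

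The Engrailed factors had the widest range. In WT mice 1 to 6, En2 was at 6.59, 9.67, 9.35, 8.46, 9.68 and 3.04. In Chd8 V986*/+ mice 1 to 6, En2 was at 3.50, 4.16, 8.28, 6.49, 7.12 and 4.22. In WT, 4 mice were higher than every mutant, but WT mouse 6 was the lowest of all 12. The means were 7.80 ± 2.61 (SD, n = 6) and 5.63 ± 1.93 (SD, n = 6), a difference of −2.17 (SE 1.11, adjusted p = 0.98 with limma), with an exact two-sided permutation p of 0.13 before any adjustment. En1 was at 6.26, 8.95, 8.64, 7.80, 9.07 and 2.82 in WT mice 1 to 6. It was at 4.01, 4.28, 7.64, 6.60, 6.78 and 4.71 in Chd8 V986*/+ mice 1 to 6. En1 thus ordered the mice almost as En2 did, and its difference was −1.58 (SE 0.98, adjusted p = 0.98 with limma).

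Among the Pax2/5/8 genes, Pax5 had the difference that was largest against its error. In WT mice 1 to 6, Pax5 was at 4.09, 7.19, 7.23, 5.81, 6.80 and 3.39. In Chd8 V986*/+ mice 1 to 6, it was at 3.01, 3.23, 6.03, 3.26, 3.65 and 3.34. Mutant mouse 3 lay among the WT mice, while 4 of 6 mutants were lower than every WT mouse. The means were 5.75 ± 1.65 (SD, n = 6) and 3.75 ± 1.14 (SD, n = 6). The difference was −1.998 (SE 0.69), with a limma p of 0.012 that became 0.98 after adjustment over all genes. The exact permutation test gave p = 0.030, unadjusted. It was the only one of the 9 genes with an unadjusted limma p below 0.05 and a lower level in mutants, as were 2.35% of all genes. In one fit of all 48 samples, Pax5 passed with an adjusted p of 0.038 with limma. That fit pools its error over all ages, and the SD of Pax5 within postnatal groups was only 0.27 to 0.69. The part of this smaller postnatal spread in the change was not tested.

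Pax2, required for the isthmus from its outset, was at 3.33, 6.84, 6.49, 4.29, 8.09 and 3.11 in WT mice 1 to 6. Its level in Chd8 V986*/+ mice was 3.20 to 5.56, with a median of 3.76. The difference was −1.42 (SE 0.77, adjusted p = 0.98 with limma), and WT mice 2, 3 and 5 were above every mutant. Pax8 was at 2.78, 5.56, 5.86, 4.39, 6.48 and 2.68 in WT mice 1 to 6 and at 2.81 to 5.26, with a median of 3.42, in mutants. For Pax8, the same WT mice 2, 3 and 5 stood above the mutants, and the difference was −1.003 (SE 0.64, adjusted p = 0.98 with limma).

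The dorsal factors Pax3 and Pax7 split the WT mice in the same way, with mice 2 to 5 high and mice 1 and 6 low. Pax7 was at 6.05, 8.96, 8.88, 8.92, 9.20 and 4.34 in WT mice 1 to 6. In Chd8 V986*/+ mice 1 to 6, it was at 5.61, 4.94, 8.56, 7.90, 5.84 and 6.02. WT mice 2 to 5 were close to each other and above every mutant, and the difference between genotypes was −1.25 (SE 0.85, adjusted p = 0.98 with limma). Pax3 was at 5.30 to 8.34, with a median of 7.80, in WT mice and at 5.40 to 7.21, with a median of 6.29, in mutants. Its difference was −0.98 (SE 0.50, adjusted p = 0.98 with limma), and WT mice 2 to 5 were again the highest.

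Gbx2 and Lmx1b had the smallest differences between genotypes. Gbx2 was at 8.63, 9.09, 8.99, 8.96, 9.59 and 9.49 in WT mice 1 to 6. In Chd8 V986*/+ mice 1 to 6, it was at 8.75, 8.61, 8.02, 8.88, 9.30 and 9.46. All 12 mice thus had Gbx2 well above the floor, the genotypes overlapped, and the difference was −0.29 (SE 0.22, adjusted p = 0.98 with limma), or −0.12 without mutant mouse 3. Lmx1b was at 3.22 to 6.60, with a median of 5.62, in WT mice and at 4.36 to 5.55, with a median of 5.07, in mutants. Lmx1b had the smallest difference of the 9, −0.24 (SE 0.44, adjusted p = 0.99 with limma), and it ran from −0.66 without WT mouse 6 to 0.015 without WT mouse 5.

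**Figure D1:**
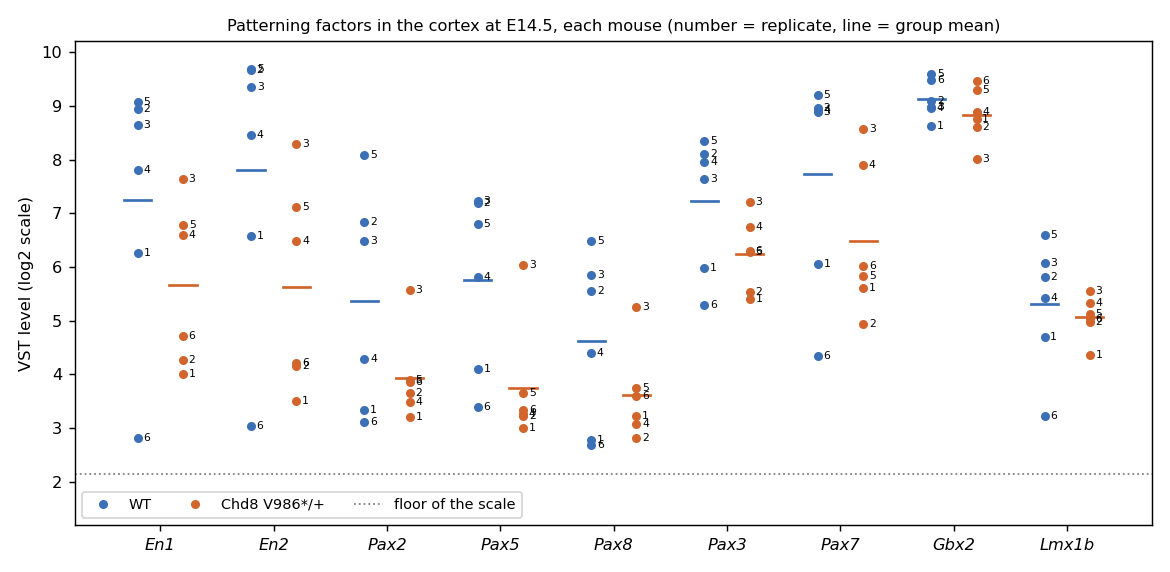
VST level (vertical axis, log2 scale) of the 9 genes in each E14.5 mouse, with WT in blue and Chd8 V986*/+ in orange, the replicate number beside each point, a line at each group mean and the floor dotted. En2 runs from 3.04 to 9.68 among WT mice, whereas Gbx2 stays between 8.02 and 9.59 in all 12 mice.

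Levels spread widely between mice of one genotype. The pooled SD within genotypes was 2.30 for En2, which ranked 2 among the 16877 genes tested, and 2.02 for En1, which ranked 4. Pax7 ranked 7, Pax2 12, Pax5 20, Pax8 26, Pax3 65 and Lmx1b 94 by the same measure. In all, 8 of the 9 genes were therefore among the most variable genes of the embryonic cortex, against a median SD of 0.18 over all genes tested. Gbx2, with a pooled SD of 0.44, ranked 1121.

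The same mice were high for all of them but Gbx2. For 8 of 9 genes, the 5 highest of the 12 mice were WT mice 2, 3, 4 and 5 and Chd8 V986*/+ mouse 3. WT mouse 6 was the lowest mouse for 7 of 9 genes, and for Pax5 and Gbx2 it was not. WT mice 2, 3 and 5 were above the median of the 12 mice for 9 of 9 genes, and mutants 1 and 2 for 0 of 9. Ordered by the mean of the standardized levels, WT mouse 5 came first, followed by WT mice 2, 3 and 4, mutants 3, 5, 4 and 6, WT mouse 1, mutants 2 and 1, and WT mouse 6. Neighbors in this order were often close, with mean standardized levels of 1.05 and 0.98 in WT mice 2 and 3 and of −0.17 and −0.22 in mutants 5 and 4. With the median over genes, the same 5 mice came first.

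**Figure D2:**
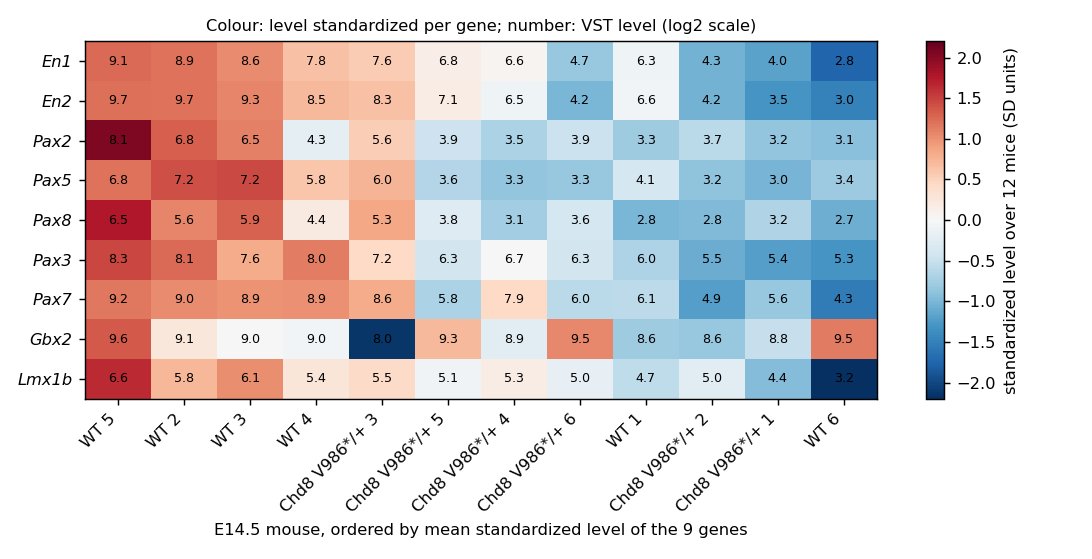
Level of each gene in each E14.5 mouse, with colour for the level standardized per gene over the 12 mice (SD units) and the VST level written in each cell, mice ordered from left to right by their mean standardized level. The 5 columns on the left are above the mean in every row but Gbx2, apart from Pax2 in WT mouse 4, and Gbx2 has its lowest level of 8.02 in mutant mouse 3.

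Across the 12 mice, Pearson's r between genes was 0.75 to 0.99 in the 28 pairs without Gbx2, with a median of 0.87, and −0.10 to 0.16 in the 8 pairs with Gbx2. The highest was that of En1 and En2, 0.99, followed by Pax2 and Pax8, 0.97, and Pax3 and Pax7, 0.96, each a pair of close relatives. After removal of the genotype means, the same 28 pairs had r of 0.75 to 0.99. Each point of such a correlation is 1 mouse whose library gives both values, so these are descriptions without a test.

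Within the shared order, some mice differed more in Pax2 and Pax8 than in Pax3 and Pax7. Between WT mouse 5 and WT mouse 4, Pax2 differed by 3.80 and Pax8 by 2.09, but Pax7 by 0.28 and Pax3 by 0.38. En1 differed by 1.27, En2 by 1.219 and Pax5 by 0.99 between the same mice. Among mutants, mouse 3 exceeded mouse 4 by 2.77 in Pax5, 2.17 in Pax8 and 2.07 in Pax2, but by 0.46 in Pax3 and 0.66 in Pax7. Mice farther apart in the order differed in all 4 genes, with WT mouse 5 above WT mouse 6 by 4.98 in Pax2, 3.80 in Pax8, 4.86 in Pax7 and 3.04 in Pax3. These mice were picked after their values were seen.

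Of the neighboring genes of the isthmus, Cnpy1, which is made at the isthmus and acts in FGF signaling, went with the factors other than Gbx2. It was at 5.42, 7.97, 7.82, 7.02, 8.30 and 3.89 in WT mice 1 to 6 and at 4.17 to 7.22 in mutants, with mutant mouse 3 the highest. Wnt1, the midbrain signal of the isthmus, was at 3.71 to 5.24 in WT mice, with mouse 5 the highest and mouse 6 the lowest. Fgf8, the signal of the hindbrain side, was at 3.70 to 4.79 in WT mice and at 3.64 to 4.995 in mutants. WT mouse 6, the lowest for En1 and En2, was the highest WT mouse for Fgf8 and for Fgf17, at 6.58. Both Fgf genes are also made in the forebrain. Of 15 genes of isthmic signals and partners, 9 were lower in mutants, and 0 passed after adjustment. Otx2 (−0.50) and Irx3 (−0.995) were the 2 of these lower with an unadjusted limma p below 0.05, as were 2.35% of all genes.

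Genes of other brain regions outside the cortex were compared by list. Among all 16877 genes tested, 8364 were lower in mutants, and 2.35% were lower with an unadjusted limma p below 0.05. In the midbrain list, 17 of 20 genes tested were lower in mutants, 3 of them with an unadjusted limma p below 0.05. The median difference was −0.54, and 0 passed after adjustment. In the rhombic lip and hindbrain list, 14 of 16 were lower, 8 of them with an unadjusted limma p below 0.05. The median was −1.19, and 0 passed after adjustment. Genes were tested where the mean of the 12 mice was at least 0.5 above the floor. Of the 8, Lbx1 and Phox2a, at 2.28 and 2.61 in mutants, passed this filter only through WT mice. For these genes, only a lower level in mutants could be called. In the diencephalon list, 8 of 12 were lower, 3 of them with an unadjusted limma p below 0.05. The median difference was smaller, −0.21, and 0 passed after adjustment. Slc6a4, the serotonin transporter, differed by −1.83. Atoh1, a factor of the rhombic lip, was at 4.998, 5.07 and 6.003 in WT mice 2, 3 and 5 and at 2.07 to 3.50 in the other mice. It was therefore high in the WT mice with the highest Pax2 and Pax8. The mean level of the midbrain list ran from 5.63 in WT mouse 6 to 8.73 in WT mouse 5, and that of the hindbrain list from 4.203 in mutant mouse 2 to 7.13 in WT mouse 5.

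The Hox genes, markers of the hindbrain behind the isthmus and of the spinal cord, were near the floor in most mice. The mean of the 27 Hox genes was 3.99 in WT mouse 5 and 2.29 to 2.60 in the other 11 mice. Hoxb3 was at 8.41 in WT mouse 5 and at 1.97 to 3.82 in the others. WT mouse 5 was also the highest for 8 of the 9 patterning factors, so their differences were computed without it. Without WT mouse 5, the difference in En2 was −1.79, in Pax5 −1.79, in Pax2 −0.87 and in Pax8 −0.63, and 0 of 9 genes passed. Without WT mouse 6, the lowest, the differences were −3.12 for En2, −2.47 for En1, −2.47 for Pax5, −1.92 for Pax7 and −1.87 for Pax2, and again 0 of 9 passed (lowest adjusted p = 0.18 with limma, for Pax5).

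The cortical markers ran the other way in part. Their mean level was lowest in WT mouse 5, at 11.30, and highest in WT mouse 6 and mutant mouse 2, at 12.21 and 12.30. WT mouse 1 and mutant mouse 1, low for the 9 factors, were at 11.84 and 11.82, below mutant mouse 3 at 11.95. Of the 10 markers, 9 were higher in mutants, 3 of them with an unadjusted p below 0.05, by a median of 0.31, and 0 passed after adjustment. Among all 16877 genes tested, 769 had an unadjusted limma p below 0.05 in either direction, 396 of them lower in mutants and the rest higher. Emx1, a factor of the dorsal forebrain, was among the 10 genes whose levels ran most opposite to the 9 factors, with r of −0.94 to their mean standardized level. The most opposite was Xrcc6 (r = −0.98), and apart from Emx1 these genes were in none of the gene lists. The part of the cortical marker levels in the differences between genotypes was not tested. Markers of other tissues were mixed, with 3 of 6 skeletal muscle genes, 5 of 8 meningeal genes, 2 of 8 choroid plexus genes and 5 of 7 neural crest and melanocyte genes tested lower in mutants. In these lists, 0 genes passed after adjustment.

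**Figure D3:**
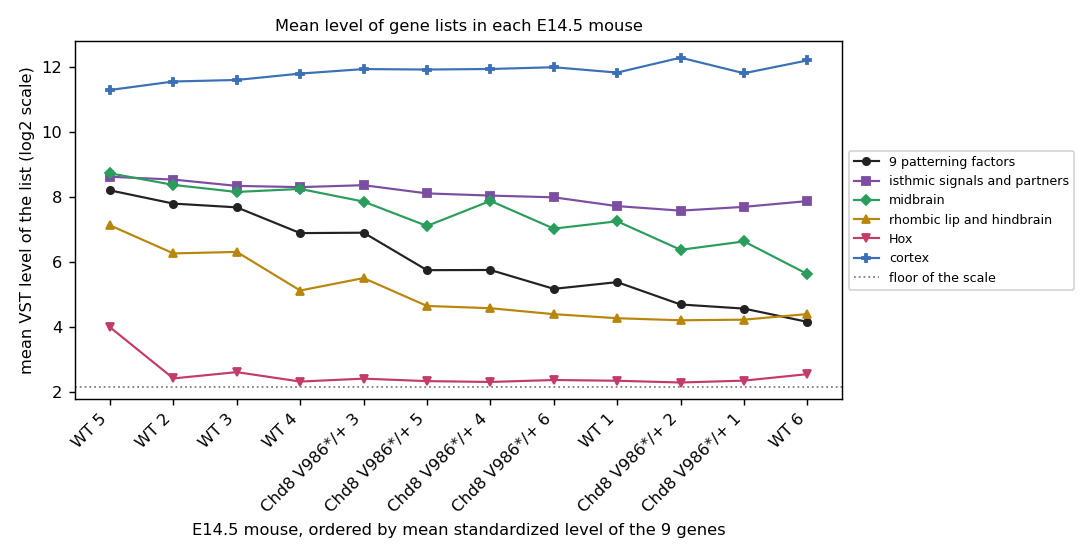
Mean VST level (vertical axis, log2 scale) of 6 gene lists in each E14.5 mouse, in the same order of mice as for the standardized levels, with the floor dotted. The 9 factors fall from 8.21 in WT mouse 5 to 4.15 in WT mouse 6 with the midbrain and hindbrain lists. The cortex list moves in part the opposite way, between 11.30 and 12.30, and the Hox list stands out in WT mouse 5.

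The 10 genes most like the mean standardized level of the 9 factors, of 16868 compared over the 12 mice, were Ebf2 (r = 0.99), Ebf3, Irx5, Gfra1, Cdh22, Irx1, Mab21l1, Lhx1, Gm20554 and Gata2 (r = 0.96). Irx1 and Irx5 were in the list of diencephalic genes, Gata2 in the midbrain list, and Mab21l1 and Lhx1 in the hindbrain list. The level of Ebf2 ran from 7.87 to 10.54. These correlations are descriptions over mice of both genotypes.

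After birth the 9 factors were low. From E14.5 to 1 month in WT mice, 9 of 9 genes fell, where 42.3% of all genes tested fell. The filter on low values used the mean over the 2 ages. Pax7, Pax3 and Pax8, at 2.42, 2.44 and 2.60 at 1 month, passed it only through E14.5. For them, only a fall could be called. Gbx2 fell by 5.55 (SE 0.25, adjusted p = 5.6e-12 with limma), from 9.12 ± 0.36 (SD, n = 6) to 3.58 ± 0.61 (SD, n = 6), the largest drop of the 9. The difference was −5.31 for Pax7, −4.78 for Pax3, −4.47 for En1, −3.10 for Pax5, −2.72 for En2, −2.55 for Lmx1b and −2.03 for Pax8. Pax2 had the smallest, −1.66 (SE 0.71, adjusted p = 0.041 with limma).

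In Chd8 V986*/+ mice, 8 of 9 genes fell over the same interval, where 42.4% of all genes tested fell. Here Pax8 and Lmx1b, at 2.38 and 2.58 at 1 month, passed the filter only through E14.5. Gbx2 fell by 5.40 (SE 0.29, adjusted p = 3.4e-11 with limma), and the difference was −3.59 for Pax7, −3.50 for Pax3, −2.96 for En1, −2.48 for Lmx1b and −1.24 for Pax8. The difference was −1.23 for En2 (adjusted p = 0.091) and −0.98 for Pax5 (adjusted p = 0.056), and these calls were lost in 8 and 4 of the 12 fits that left out 1 mouse, with the smallest differences, −0.70 and −0.53, without mutant mouse 3 at E14.5. Both calls were also lost without the filter on low values (adjusted p = 0.16 and 0.10). Pax2 changed by −0.26 (SE 0.34, adjusted p = 0.49 with limma) and by 0.065 without that mouse. The drops were smaller than in WT mice for each of the 9 genes. Each drop starts from the E14.5 mean, which was lower in mutants for all 9 genes, so this is not a separate result. The difference between the drops was not tested.

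**Figure D4:**
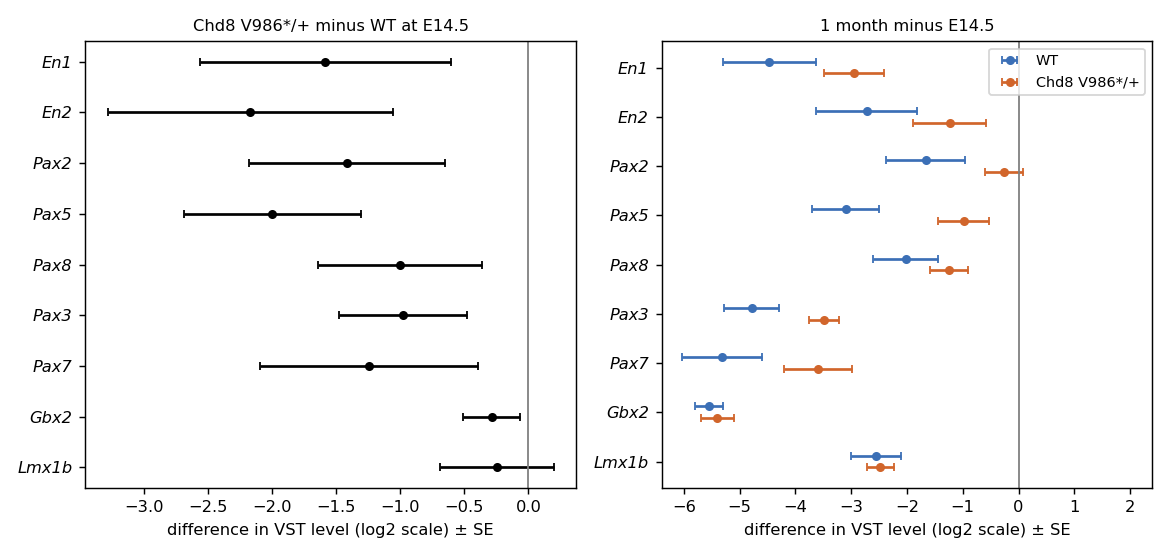
Left, difference in VST level between Chd8 V986*/+ and WT mice at E14.5, and right, difference between 1 month and E14.5 in WT (blue) and Chd8 V986*/+ mice (orange), as points with the SE of the fit as bars, on a log2 scale. All 9 points on the left are below 0, from −2.17 for En2 to −0.24 for Lmx1b, and on the right Gbx2 has the largest drop in both genotypes.

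Pax3 and Gbx2 were higher in each of the 12 E14.5 mice than in any of the 36 postnatal mice, and En1 and Lmx1b in 11 of 12. Pax5, by contrast, exceeded all postnatal mice in 6 of 12 embryos and Pax2 in 4 of 12. In the 36 postnatal mice, Pax5 was at the floor in 24, Pax8 in 22, Pax7 in 20, Pax3 in 19, En1 in 18 and Lmx1b in 16. No E14.5 mouse was at the floor for any of the 9 genes.

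En2, Pax2 and Gbx2 stayed detectable after birth. En2 was at 4.02 to 6.35 in the 36 postnatal mice, with a median of 4.85 and 0 at the floor. Pax2 was at 2.86 to 4.95, with a median of 3.95 and 0 at the floor. Gbx2 was at 2.11 to 4.81, with a median of 3.78 and 2 at the floor. These are the genes that could be tested between genotypes at every age.

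At 1 month, 0 of the 7 genes that passed the filter on low values differed between genotypes, where 0.139% of all genes tested did. En2 was at 6.35, 4.74, 5.22, 4.89, 4.36 and 4.88 in WT mice 1 to 6 and at 4.43, 4.02, 4.34, 4.33, 4.99 and 4.26 in mutants. In all, 4 of 6 mutants were lower than every WT mouse, and the difference was −0.68 (SE 0.26), with a limma p of 0.020 before and 0.46 after adjustment. Without WT mouse 1, the highest, the En2 difference was −0.42, and it was −1.17 within replicates 1 to 3 and −0.19 within replicates 4 to 6. Pax7 was at 5.10 in mutant mouse 1 and at 1.95 to 2.94 in the other mutants of that age.

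At 6 months, 0 of 6 genes tested differed between genotypes, where 0.0927% of all genes did, and En2 was at 4.75 ± 0.51 (SD, n = 6) in WT and 4.74 ± 0.40 (SD, n = 6) in Chd8 V986*/+ mice. At 12 months, 0 of 3 genes tested differed, where 0.0463% of all genes did. En2 was then at 4.81 ± 0.27 (SD, n = 6) in WT and 5.08 ± 0.32 (SD, n = 6) in mutants, Pax2 at 4.09 ± 0.25 (SD, n = 6) and 4.23 ± 0.44 (SD, n = 6), and Gbx2 at 3.81 ± 0.55 (SD, n = 6) and 3.70 ± 0.40 (SD, n = 6). The ranges of the genotypes overlapped for all 9 genes at each postnatal age, with no share over all genes counted. Whether the difference between genotypes changed with age was not tested.

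Between the postnatal ages the 9 genes showed no change that passed the test. From 1 to 6 months, 0 of the 4 genes tested in WT mice changed (24.6% of all genes did) and 0 of the 6 tested in Chd8 V986*/+ mice (26.8% of all genes). The mean of Pax2 was 0.35 higher at 6 months in WT mice and 0.43 higher in mutants, with adjusted p of 0.24 and 0.21 with limma. From 6 to 12 months, 0 of 3 genes tested in WT mice changed (0.00579% of all genes) and 0 of 5 in mutants (3.43% of all genes). Without WT mouse 2 of 1 month, or without mutant mouse 5 of 1 month, Pax2 passed from 1 to 6 months (adjusted p = 0.096 and 0.083 with limma).

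**Figure D5:**
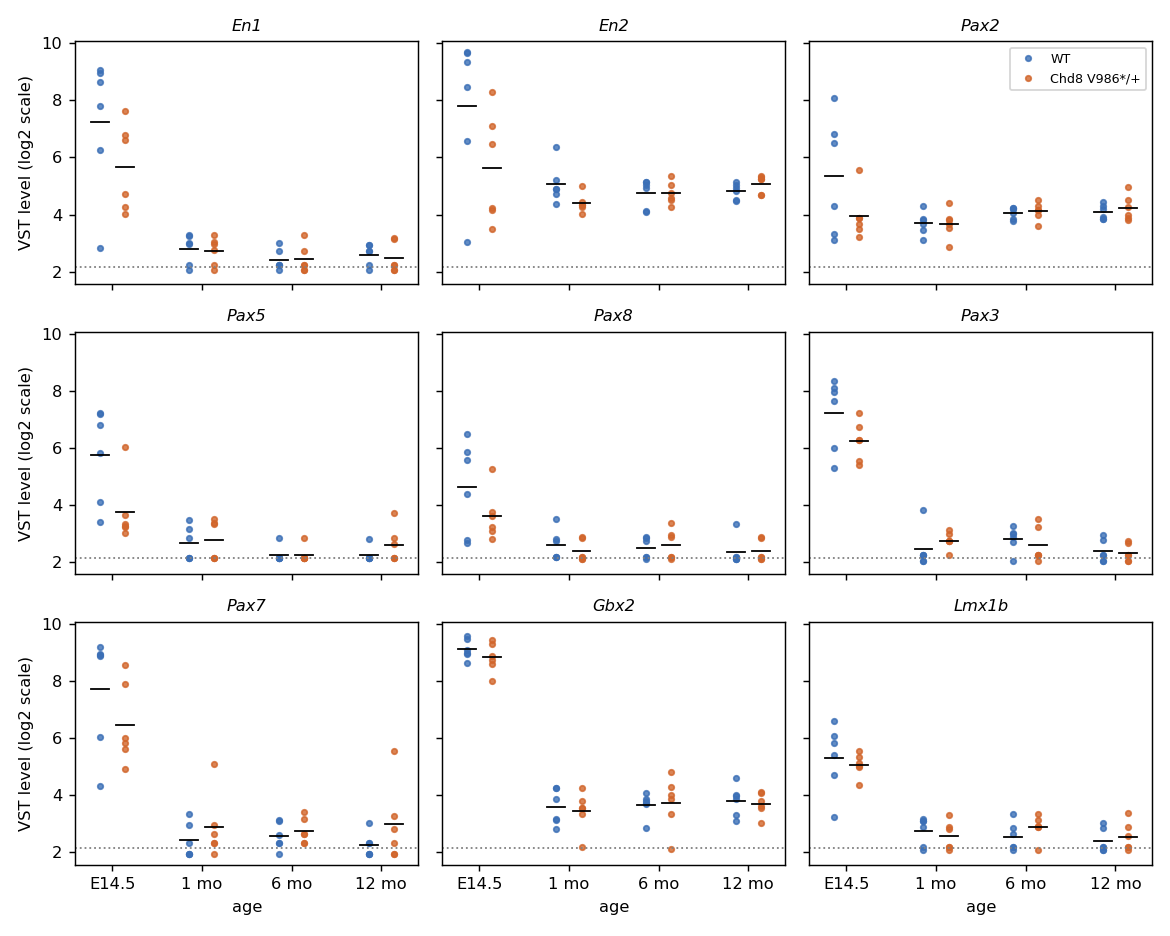
VST level (vertical axis, log2 scale) of each of the 9 genes at the 4 ages, with WT in blue, Chd8 V986*/+ in orange, 1 point per mouse, a line at each group mean (n = 6) and the floor dotted. Levels spread widely at E14.5 and lie near the floor after birth for all but En2, Pax2 and Gbx2, with single Pax7 values of 5.10 and 5.54 in mutants at 1 and 12 months.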

How the data were processed

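Genotype, age and replicate number come from the sample labels. According to the study's methods and the submitters' processing notes, reads that passed a quality filter were stripped of adapters, mapped to mm9 (STAR 2.5.2b), quantified per transcript (Salmon 0.11.3) and modelled in DESeq2 1.22.2, with a correction for batch effects by the authors. The methods name KAPA libraries, the labels a TruSeq kit. The values deposited by the authors are VST values, which lie on a log2 scale, for 24444 genes in 48 samples, and 15.7% of values were at the floor of 2.1433. The means of replicates 1 to 3 and of replicates 4 to 6 were equal for each gene to within 3.38e-14, so a shift between them had been removed by the authors. This limits how far the spread between replicates can be read as that between mice.

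Differences were fitted with limma 3.58.1 (R 4.3.3) with an intensity trend, on the 12 samples of an age, or of 2 ages of a genotype, over genes with a mean at least 0.5 above the floor, and judged at a Benjamini-Hochberg adjusted p of 0.1. The fitting was tested on simulated data. Single genes were also compared with exact two-sided permutation tests over mice (smallest p possible 0.0022). Replicates 1 to 6 are separate mice. The members and the gene lists were chosen with earlier results of these data known, so counts over them are descriptions. The genes named are the 9 members, Chd8, a list of context genes and the 10 genes with the highest r to the members, and others were chosen after their values were seen. Gene coordinates are from the mm9 annotation (GENCODE). Python 3.11.15, pandas 2.3.3 and scipy 1.17.1 were used. Alternatives were a replicate block, 1 fit of all samples, other filters, no trend, quantile normalization, centring, the set of replicates as a covariate, each set alone, an adjusted p of 0.05 and leaving out each mouse. The study gives the read depth of each sample, which was not used here.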

Additional observations from a re-analysis of the deposited data

Results flagged for a closer look

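In 50 groups of 6 mice (each of the 9 genes in each genotype, at the ages where it passed the filter on low values), the highest or lowest mouse was compared with its nearest neighbor by Dixon's ratio, with 0.625 as the critical value. This marked 4 groups. Chance alone would mark about 1 group in 20 if the groups were independent and their values normally distributed. Here the groups of different genes hold the same mice, and some hold tied values at the floor. The 4 marked groups are thus descriptions and are not set against that rate. At E14.5, mutant mouse 3 stood above the other mutants for Pax2, at 5.56, and for Pax5, at 6.03. At 1 month, mutant mouse 1 stood above the other mutants for Pax7, at 5.10. At 6 months, WT mouse 4 stood below the other WT mice for Gbx2, at 2.86. Mutant mouse 3 of E14.5 was also the highest mutant for En1, En2, Pax8, Pax3, Pax7 and Lmx1b and the lowest for Gbx2.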

How the results depend on the processing

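Among the 9 genes, the count that passed between genotypes at E14.5 stayed at 0 under every alternative but 1 fit of all 48 samples, where it was 1, Pax5 (difference −1.998, adjusted p = 0.038). That fit pools its error over all ages, while the main fit uses E14.5 alone. Over the other alternatives for Pax5 the adjusted p reached 1.00. Of the differences of single genes, Lmx1b at E14.5 turned to 0.015 without WT mouse 5 (−0.66 at the other end, without WT mouse 6) and Pax2 in mutants from E14.5 to 1 month turned to 0.065 without mutant mouse 3 (−0.41 without mutant mouse 1). Leaving out 1 mouse gave 0 to 1 of the 9 genes from 1 to 6 months in each genotype. Within replicates 1 to 3 alone and 4 to 6 alone, the E14.5 differences were −2.08 and −1.92 for Pax5, −2.64 and −0.53 for En1, −3.22 and −1.12 for En2, −0.44 and −0.13 for Gbx2, and −0.57 and 0.078 for Lmx1b, with no test.

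The count of all genes that passed between genotypes moved more. At E14.5 it was 1 as reported, 2 with the stricter filter, centring of samples on the median gene, quantile normalization or the set of replicates as a covariate, 3 with no filter, 0 without the trend and 93 in 1 fit of all samples. At 1 month it was 24 as reported, 15 at an adjusted p below 0.05 and 37 in 1 fit of all samples. At 6 months it was 16 as reported, 5 at an adjusted p below 0.05 and 4 without the trend. At 12 months it was 8 as reported, 3 at an adjusted p below 0.05 and 520 in 1 fit of all samples. Leaving out 1 mouse gave 0 to 2 genes at E14.5, 3 to 32 at 1 month, 5 to 21 at 6 months and 2 to 251 at 12 months, the last without WT mouse 3, and from 6 to 12 months 0 to 2 in WT and 209 to 814 in mutants. The cause was not tested.

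Replicate numbers were not taken to pair the mice, since not every pair resembled each other. Same-numbered mice correlated at E14.5 with a mean r of 0.23 after removal of group means, above 0.1 in 4 of 6 pairs, and 7 of 12 mice correlated best with their own number, and at the later ages the mean r was 0.018, 0.045 and −0.034. With a replicate block, the counts of all genes between genotypes were 2, 13, 30 and 2 in the order of the ages, that of WT from 6 to 12 months was 0 against 1, and that of mutants was 395 against 592. With this replicate block, 0 of the 9 genes passed between genotypes, and at E14.5 Pax5 had an SE of 0.44 and an adjusted p of 0.32, and En2 an SE of 0.65 and an adjusted p of 0.36. At E14.5, Pax5 was lower in the mutant in 6 of 6 same-numbered pairs, Pax8 in 4 and each other gene of the 9 in 5. The share over all genes was not counted. The number of reads behind single values is unknown, and values at the floor limit what can be seen after birth.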
